A study of Mus musculus with 6 samples.

Results

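The cytosolic ribosomal protein genes are those that encode the protein subunits of the ribosomes that translate nuclear-encoded mRNA. They were taken as the rows of the count table whose gene symbol was Rpsa or had the form Rps, Rpl or Rplp, a number and at most a short suffix, so that rows named as pseudogenes and the Rps6k kinases were left out. This gave 87 genes of the 46095 in the table, of which 80 passed the filter on low counts and were tested among 13215 genes. The rule used symbols only and no measured value. It missed genes such as Rps3a1, Fau and Rack1, whose products are also ribosomal proteins and whose values are given with the related gene lists.

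RNA sequencing had been done on bone marrow-derived macrophages of Cd226-/- mice and of wild-type (WT) mice, all C57BL/6 and 56 days old. Cd226 encodes an activating adhesion receptor of immune cells. In both genotypes marrow cells were grown for 7 days with M-CSF at 20 ng/ml, the growth factor that drives macrophage differentiation, and then received 20 ng/ml IFN-γ and 100 ng/ml LPS for 24 h, a treatment that gives M1-type macrophages. There were 3 Cd226-/- and 3 WT libraries, every one stimulated, and the comparison asks how the genotypes differ under the same stimulus. How the Cd226-/- allele was made is not given in the sources used here. Whether replicates are separate mice or separate cultures is not stated in the labels. The p-values thus refer to the spread among these 6 libraries, and some or all of that spread may be technical in origin.

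Total counts per library ran from 16838527 to 21658061. Cd226 itself had 11, 10 and 8 counts in Cd226-/- libraries and 5, 17 and 23 in WT libraries, too few to check the genotype labels. Macrophage markers were abundant in every library. Their summed level over 8 genes was 19212 to 20005 CPM (read counts scaled to a common library size) in Cd226-/- and 17932 to 19895 CPM in WT. Much of this was Lyz2, with means of 11829 CPM in Cd226-/- and 10650 CPM in WT. At an adjusted p under 0.05, Adgre1, Cd68, Mertk and Fcgr1 were higher in Cd226-/-, 4 of the 8. Csf1r, Itgam and Cd14, 3 of the 8, were lower. Cd226-/- replicate 1 stood apart from replicates 2 and 3. The hepatocyte transcript Alb, one of 5 hepatocyte markers, had 0, 266 and 279 counts in Cd226-/- replicates 1 to 3 and 0 in all WT libraries, and the summed hepatocyte markers ran from 0 to 19.6 CPM in Cd226-/- and from 0 to 0.0584 CPM in WT. Counts over the ribosomal protein genes are therefore also given for Cd226-/- replicates 2 and 3 alone and for replicate 1 alone.

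Each ribosome joins a small subunit, which reads the mRNA, to a large subunit, which forms the peptide bond, and nearly every ribosomal protein is present once per particle. Cells make these proteins in balanced amounts, and their mRNAs are among the most abundant of a growing cell. Most of these mRNAs begin with a C followed by a run of pyrimidines, the terminal oligopyrimidine (TOP) motif, through which mTORC1 signalling and the RNA-binding protein LARP1 control their translation and stability.

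The annotated starts of several of these genes carry such a run, and they are shown because the motif is the sequence feature the gene family is known for. RefSeq's GRCm38.p6 promoter table held an entry for 64 of the 87 symbols, and 59 tested members were searched beside 9517 tested genes. A C at the annotated start followed by 4 pyrimidines was found in 12 of the 59 (20.3%), against 2.35% of the tested genes. An unbroken run of at least 8 pyrimidines within 25 bases of the start was found in 29 of the 59 (49.2%), against 19.0% of the tested genes. The C with 4 pyrimidines was in 21.1% of the 38 members called higher in Cd226-/- and in 19% of the 21 others. The run of at least 8 was in 50% and 47.6%, so neither feature set the members called higher apart. The first 6 sequences below are from the 12 genes with a C and pyrimidines at the start, and the last 2 are from both members called lower in Cd226-/-. Each reads 5′ to 3′ on the gene's strand, with 25 bases before the start and 25 from it, and capitals mark the longest pyrimidine run.
Rps6 (chr4:86857343-86857392, minus strand): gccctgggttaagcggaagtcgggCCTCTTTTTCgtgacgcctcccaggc
Rps21 (chr2:180257354-180257403, plus strand): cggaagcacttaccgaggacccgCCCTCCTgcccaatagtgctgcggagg
Rpl28 (chr7:4792940-4792989, plus strand): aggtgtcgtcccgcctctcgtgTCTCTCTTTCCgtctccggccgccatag
Rps10 (chr17:27635220-27635269, minus strand): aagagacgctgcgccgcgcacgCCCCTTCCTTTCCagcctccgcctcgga
Rps18 (chr17:33955641-33955690, minus strand): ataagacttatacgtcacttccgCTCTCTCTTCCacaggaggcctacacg
Rplp2 (chr7:141447626-141447675, plus strand): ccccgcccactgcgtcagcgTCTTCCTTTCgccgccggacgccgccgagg
Rpl12 (chr2:32961687-32961736, plus strand): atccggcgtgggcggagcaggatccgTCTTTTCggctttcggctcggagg
Rpl7l1 (chr17:46782632-46782681, minus strand): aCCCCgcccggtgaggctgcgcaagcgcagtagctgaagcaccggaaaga
The run in Rpl7l1 is the shortest of the 8, with 4 bases, and it lies at the far upstream end of the window.

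In the whole windows of 250 bases before and 50 after the start, read on both strands, GGAAG, the core of ETS factor sites, occurred in 91.5% of the 59 members and 76.1% of the tested genes. TCTCGCGA, a motif of ZBTB33, occurred in 13.6% and 2.35%. The YY1 motif AAGATGGC was in 8.47% and 4.91%, the E-box CACGTG in 8.47% and 10.2%, the GC box GGGCGG in 62.7% and 63.9%, and TATAAA in 8.47% and 6.93%. These are matches of letters in an annotated window, with GGAAG short enough to occur in most promoters, and no site was measured.

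Ribosomal protein mRNAs were mostly more abundant in Cd226-/- macrophages, by modest factors. In edgeR's quasi-likelihood test, with genes called below an adjusted p of 0.05, 54 of the 80 tested rose (67.5%) and 2 fell (2.5%), against 16.1% of all tested genes higher and 14.8% lower. The median log2 fold change of the 80 was 0.385, or 1.31-fold, with quartiles of 0.254 and 0.508, while the median over all tested genes was -0.004. The genes that rose ran from 1.11-fold for Rps2 to 2.14-fold for Rps29. Of these, 10 rose at least 1.5-fold and 1 at least 2-fold. In 58 members (72.5%) all Cd226-/- libraries lay above all WT libraries, against 22.1% of all tested genes, and in 2 all lay below. A change in the number of cells of a type and a change in RNA per cell cannot be told apart in such bulk samples.

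**Figure D1:**
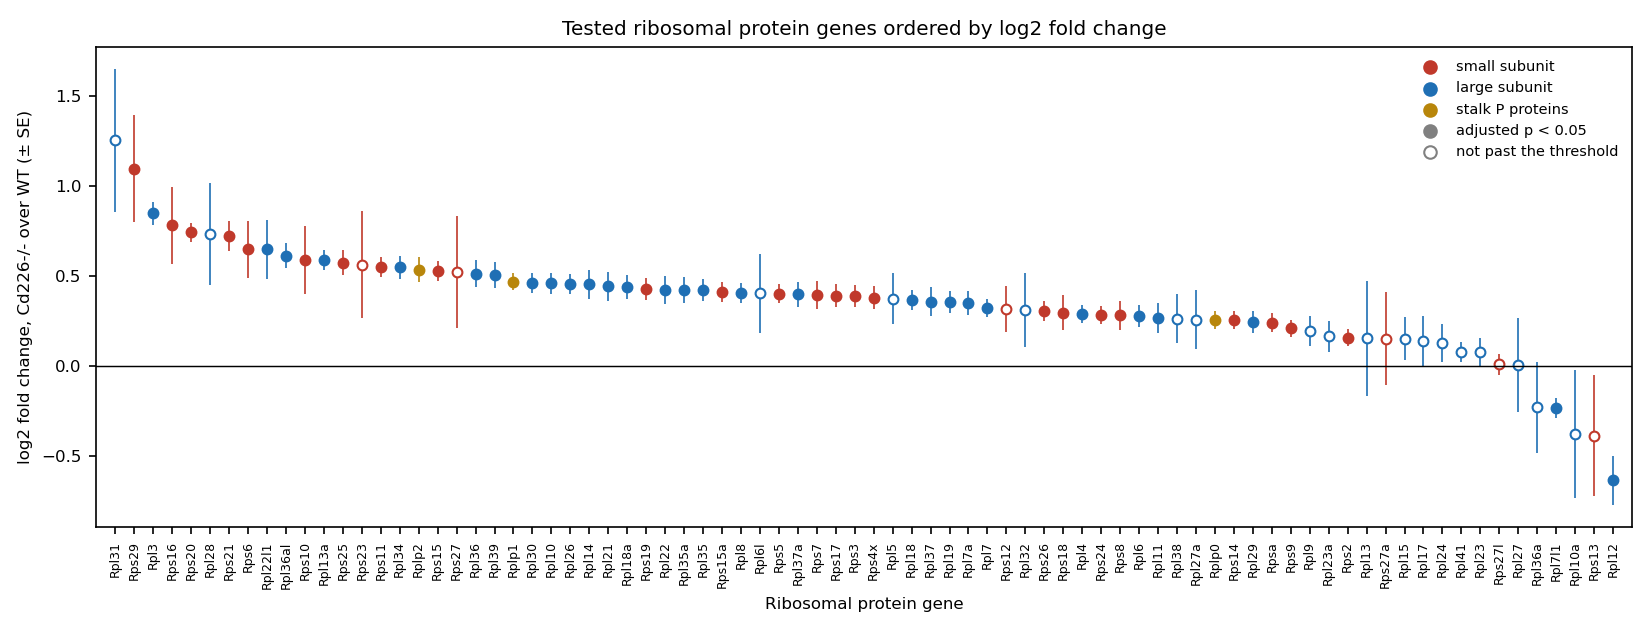
Log2 fold change of Cd226-/- over WT with its standard error for each of the 80 tested ribosomal protein genes, in descending order, with filled points past an adjusted p of 0.05 and colours for the subunit. Filled points lie above 0 for 54 genes and below 0 for 2, Rpl12 at the right end and Rpl7l1.

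Every Cd226-/- library lay above the WT libraries by its median, and replicate 1 was the lowest of the 3. Relative to the mean of the WT libraries, the median log2 level of the 80 genes was 0.261, 0.440 and 0.425 in Cd226-/- replicates 1 to 3 and -0.041, 0.042 and 0.002 in WT replicates 1 to 3. These medians did not overlap between genotypes. Replicate 1 was the lowest Cd226-/- library for 42 of the 56 members with a mean of at least 300 counts, a limit chosen after the counts were seen, and for 39.3% of all tested genes. Without replicate 1, 60 members were higher and 2 lower, with a median of 0.442. With replicate 1 alone for Cd226-/-, a library in which Alb had 0 counts, 41 were higher and 2 lower, with a median of 0.273, the lone library being assumed to vary like the WT libraries. The 2 lower with replicate 1 alone were Rpl12 and Rpl10a (log2 fold change -1.46, adjusted p = 0.0394), while Rpl7l1 missed the threshold (adjusted p = 0.0658).

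**Figure D2:**
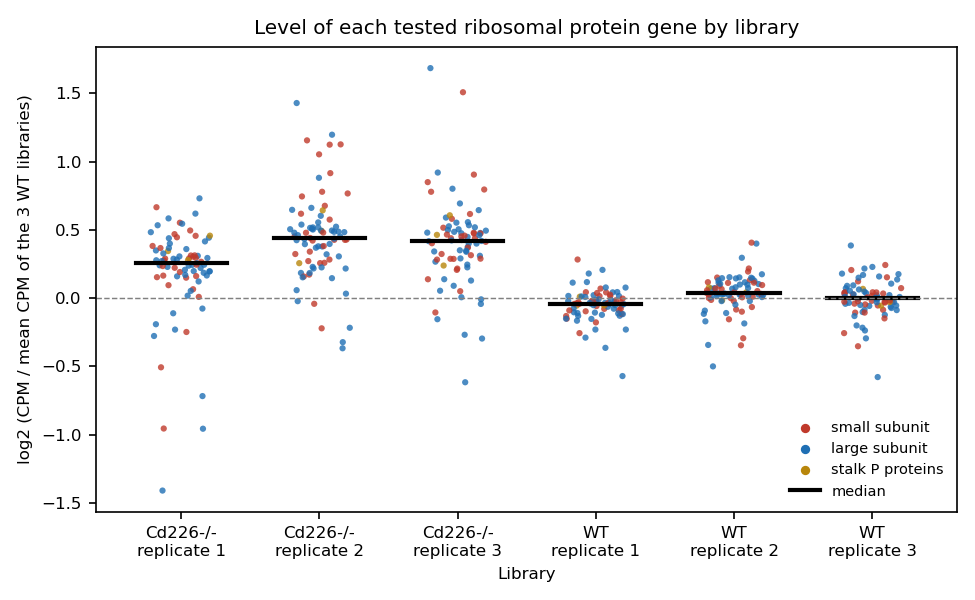
Log2 level of each tested ribosomal protein gene (CPM over the mean CPM of the 3 WT libraries) in the 3 Cd226-/- and the 3 WT libraries, 1 point per gene, with black bars at the medians. The Cd226-/- medians are 0.261, 0.440 and 0.425, above the WT medians, which lie between -0.041 and 0.042.

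As a share of all counts, the 87 genes held 0.742%, 0.811% and 0.810% in Cd226-/- replicates 1 to 3 and 0.616%, 0.664% and 0.639% in WT replicates 1 to 3. Every Cd226-/- share was above every WT share. The means were 0.788% ± 0.0396 in Cd226-/- and 0.640% ± 0.0241 in WT (SD, n = 3), a ratio of 1.23. The exact permutation test gave a two-sided p of 0.1, the smallest that 3 against 3 libraries allow. Small-subunit genes held 0.339% of counts in Cd226-/- and 0.274% in WT, and large-subunit genes with the stalk 0.448% and 0.366%, so both subunits' shares were higher by nearly the same ratio (1.24 and 1.23).

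Most well-counted members were called. Among the 56 with a mean of at least 300 counts, 49 rose (87.5%) and 1 fell (1.79%). Among the 24 below 300 counts, 5 rose (20.8%) and 1 fell (4.17%), although the medians were close at 0.393 and 0.314. Of all tested genes 16.1% were higher and 14.8% lower. Of tested genes other than members with a mean of at least 10 CPM, 18.3% were higher and 18.9% lower. The 6 well-counted genes that passed in neither direction were Rpl9, Rpl23, Rpl23a, Rpl24, Rpl41 and Rps27l, listed after their values were seen.

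In the small subunit 24 of 30 tested genes rose (80%) and 0 fell, beside 16.1% higher and 14.8% lower of all tested genes. The median log2 fold change of the 30 was 0.393. The number lower was 0 in edgeR's test, also at an unadjusted p under 0.05, and 0 in DESeq2 and limma-voom.

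Rps20, a protein of the subunit's head that is ubiquitinated when ribosomes collide, had 138, 148 and 151 CPM in Cd226-/- and 87.9, 87.6 and 85.4 CPM in WT. The genotypes were far apart relative to their spread, with a log2 fold change of 0.74 ± 0.053 (SE, adjusted p = 6.06e-10). Rps20 lies on chromosome 4, 3831584 to 3835655 (GRCm38.p6). Rps21, one of the smallest proteins of the subunit, had 40.6, 46.4 and 49.9 CPM in Cd226-/- and 26.2, 29.9 and 26.9 CPM in WT. Its log2 fold change was 0.72 ± 0.083 (adjusted p = 6.45e-07), again without overlap.

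Rps29, a zinc-binding protein of the head, had the largest called change on few counts of its own. It had 2.15, 3.96 and 5.07 CPM in Cd226-/- and 2.14, 1.75 and 1.36 CPM in WT. Replicate 1 of Cd226-/- was just above the highest WT library, and the other two were well above it. The log2 fold change was 1.10 ± 0.30 (adjusted p = 0.00775). It lost the call without Cd226-/- replicate 3 (adjusted p = 0.0841) or without WT replicate 3 (0.0555), with 3.47e-07 to 0.671 over all alternatives. Rps29 lies on chromosome 12, 69157722 to 69159186.

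Rps16, whose tail contacts the tRNA, and Rps10, a head protein that is ubiquitinated at stalled ribosomes, were also sparse. Rps16 had 4.24, 8.39 and 7.19 CPM in Cd226-/- and 3.73, 3.56 and 4.16 CPM in WT, a log2 fold change of 0.78 ± 0.215 (adjusted p = 0.0085). Rps10 had 5.79, 7.91 and 5.23 CPM in Cd226-/- and 4.38, 3.74 and 4.39 CPM in WT, a log2 fold change of 0.59 ± 0.188 (adjusted p = 0.0199). Neither gene's genotypes overlapped, but both calls were lost with single libraries left out. Without Cd226-/- replicate 2 the adjusted p was 0.0715 for Rps16, in a range of 6.15e-05 to 0.766 over its alternatives. For Rps10 it was 0.183 without that library and 0.0776 without WT replicate 2, in a range of 4.81e-05 to 0.216.

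Rps6, whose phosphorylation by the S6 kinases is the classic readout of mTORC1 activity, had 8.93, 11.9 and 11.9 CPM in Cd226-/- and 7.12, 5.43 and 8.19 CPM in WT. All Cd226-/- libraries were above all WT libraries, by 0.65 ± 0.158 (adjusted p = 0.00343). With replicate 1 alone its adjusted p was 0.259, in a range of 0.000152 to 0.259.

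Other small-subunit genes with deep counts had smaller changes. Rps3, which lines the mRNA entry channel, averaged 362 ± 24.0 CPM in Cd226-/- and 277 ± 20.7 CPM in WT (SD, n = 3 each), a log2 fold change of 0.39 (adjusted p = 3.59e-05). Rps19, the gene most often mutated in Diamond-Blackfan anaemia in humans, averaged 81.8 ± 2.62 CPM in Cd226-/- and 60.8 ± 3.31 CPM in WT, a change of 0.43 (adjusted p = 8.5e-06). Rps4x, the X-linked small-subunit gene, averaged 272 ± 17.9 CPM in Cd226-/- and 209 ± 18.4 CPM in WT, a change of 0.38 (adjusted p = 0.000154). Rpsa, also known as the laminin receptor, averaged 290 ± 13.9 CPM in Cd226-/- and 245 ± 9.2 CPM in WT, a change of 0.24 (adjusted p = 0.00099). The change of Rpsa was 0.164 with replicate 1 as the only Cd226-/- library.

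At the lower end of the called genes stood Rps18 and Rps2. Rps18, a head protein, averaged 22.4 ± 1.68 CPM in Cd226-/- and 18.3 ± 1.4 CPM in WT (adjusted p = 0.0211). Rps2, at the mRNA entry channel, averaged 218 ± 2.18 CPM in Cd226-/- and 195 ± 8.78 CPM in WT (adjusted p = 0.0187). Each missed the threshold when any of 3 single libraries was left out. For Rps18 these were Cd226-/- replicate 3 (0.121), WT replicate 1 (0.0627) and WT replicate 3 (0.101), with 0.0013 to 0.336 over all alternatives. For Rps2 they were Cd226-/- replicate 2 (0.0587), WT replicate 1 (0.109) and WT replicate 3 (0.0879), with 0.0091 to 0.109 over all alternatives.

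Among the 6 small-subunit genes that passed in neither direction were the ubiquitin fusion gene Rps27a and the zinc-binding Rps27. Rps27a had 2.43, 4.86 and 4.25 CPM in Cd226-/- and 2.9, 4.62 and 2.9 CPM in WT, with overlapping genotypes (adjusted p = 0.696). Rps27 had 1.76, 3.54 and 1.96 CPM in Cd226-/- and 1.53, 1.93 and 1.58 CPM in WT (adjusted p = 0.217). Rps13, which contributes to a bridge between the subunits, had 0.882, 1.5 and 1.63 CPM in Cd226-/- and 1.64, 2.05 and 1.58 CPM in WT, a log2 fold change of -0.39 (adjusted p = 0.409).

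In the large subunit 27 of 47 tested genes rose (57.4%) and 2 fell (4.26%), beside 16.1% higher and 14.8% lower of all tested genes. The median log2 fold change of the 47 was 0.358. Rpl3, a protein close to the peptidyl transferase centre, had 100, 111 and 114 CPM in Cd226-/- and 58.6, 65.3 and 56.8 CPM in WT. The genotypes were widely separated, with a log2 fold change of 0.85 ± 0.064 (adjusted p = 1.41e-09), the largest of any member with a mean of at least 300 counts. Rpl3 lies on chromosome 15, 80077781 to 80083406. Rpl13a, which in human monocytes leaves the ribosome after IFN-γ to silence mRNAs as part of the GAIT complex, had 250, 271 and 252 CPM in Cd226-/- and 164, 185 and 165 CPM in WT. It rose by 0.59 ± 0.055 (adjusted p = 4e-08).

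Rpl31, a protein beside the exit of the nascent chain, had the highest log2 fold change of all, 1.26 ± 0.397, and missed the threshold (adjusted p = 0.0772). It had 8.49, 18 and 21.5 CPM in Cd226-/- and 6.08, 6.14 and 7.74 CPM in WT. Replicate 1 lay close to the WT libraries and replicates 2 and 3 far above them. Without replicate 1 the log2 fold change was 1.56 (adjusted p = 2.29e-10). Rpl31 was also called by DESeq2 (adjusted p = 0.00948) and with a replicate block (5.16e-05), and over all alternatives the adjusted p ran from 2.29e-10 to 0.278. Rpl28, a large-subunit protein of animals, had 2.43, 5.04 and 3.54 CPM in Cd226-/- and 2.14, 1.52 and 2.85 CPM in WT, with overlapping genotypes (log2 fold change 0.73, adjusted p = 0.0558). It passed in 5 of the 17 alternatives that tested it, among them without Cd226-/- replicate 1 (0.00677) and with copies summed (0.0055), and the adjusted p ran from 0.00483 to 0.84. Without Cd226-/- replicate 2 its log2 fold change was 0.446.

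Rpl5 and Rpl11 bind MDM2 together when ribosome assembly is disturbed. Rpl5 had 11.3, 14.9 and 16.0 CPM in Cd226-/- and 11.5, 12.3 and 8.87 CPM in WT, and its genotypes overlapped (log2 fold change 0.37, adjusted p = 0.0546). Rpl11 had 42.9, 42.9 and 46.4 CPM in Cd226-/- and 31.2, 39.2 and 39.4 CPM in WT, a rise of 0.27 (adjusted p = 0.0178). Its call was lost without Cd226-/- replicate 3 (0.0843) or WT replicate 1 (0.14), with 0.0042 to 0.161 over all alternatives. Rpl5 passed in 7 alternatives, without Cd226-/- replicate 1 (0.0035), without WT replicate 2 (0.04), with length and GC offsets (0.0382), at a mean of at least 5 CPM (0.0489), with named pseudogenes summed (0.032), without a filter (0.0208) and with the replicate block (0.0432). Its adjusted p ran from 0.0035 to 0.854.

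Rpl10, which joins the subunit late in its assembly, averaged 113 ± 4.41 CPM in Cd226-/- and 81.9 ± 5.28 CPM in WT, a rise of 0.46 (adjusted p = 2.47e-06). Rpl36 averaged 40.8 ± 2.24 CPM in Cd226-/- and 28.6 ± 1.2 CPM in WT, a rise of 0.51 (adjusted p = 1.66e-05). Rpl39, a small protein of the exit tunnel, averaged 74.4 ± 0.943 CPM in Cd226-/- and 52.5 ± 5.91 CPM in WT, a rise of 0.51 (adjusted p = 1.11e-05). All 3 kept their calls in each of 18 alternatives.

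Both members that fell belong to the large-subunit list. Rpl12, at the base of the stalk, had 6.83, 10.3 and 8.66 CPM in Cd226-/- and 12.9, 13.1 and 13.9 CPM in WT, a log2 fold change of -0.64 ± 0.136 (adjusted p = 0.00102). Rpl7l1, a relative of Rpl7 and of the yeast assembly factor Rlp7, had 84.2, 82.7 and 78.3 CPM in Cd226-/- and 94.7, 97.4 and 96.3 CPM in WT, a change of -0.235 ± 0.054 (adjusted p = 0.00188). No Cd226-/- library overlapped a WT library in either gene. The call of Rpl7l1 was lost with replicate 1 as the only Cd226-/- library (adjusted p = 0.0658, in a range of 0.000176 to 0.0658). That of Rpl12 was lost, and its direction turned, when near-identical copies were summed with the gene (log2 fold change 0.07, adjusted p = 0.474). Rpl12 lies on chromosome 2, 32961712 to 32964045, and Rpl7l1 on chromosome 17, 46773907 to 46782656.

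Rpl10a, a protein of the mobile arm beside the exit site, had only 0.772, 2.1 and 2.07 CPM in Cd226-/- and 1.42, 2.63 and 2.35 CPM in WT (log2 fold change -0.38, adjusted p = 0.453). Rpl27 had 2.2, 3.54 and 2.4 CPM in Cd226-/- and 2.9, 2.1 and 3.03 CPM in WT, with a log2 fold change of 0.01. Rpl23, at the face between the subunits, was better counted and averaged 35.8 ± 0.94 CPM in Cd226-/- and 33.9 ± 4.05 CPM in WT (log2 fold change 0.075, adjusted p = 0.526).

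The P proteins form the stalk of the large subunit, which recruits the elongation factors. All 3 of their genes rose, beside 16.1% higher and 14.8% lower of all tested genes. Rplp0, the anchor and the member with the highest CPM in WT, had 510, 502 and 496 CPM in Cd226-/- and 405, 444 and 412 CPM in WT (log2 fold change 0.26, adjusted p = 0.000399). Rplp1 had 244, 250 and 245 CPM in Cd226-/- and 179, 183 and 171 CPM in WT (0.47, adjusted p = 1.6e-07). Rplp2 had 98.4, 121 and 118 CPM in Cd226-/- and 74.6, 76.6 and 81.2 CPM in WT (0.54, adjusted p = 8.36e-06). For all 3 genes every Cd226-/- library lay above every WT library, against 22.1% of all tested genes. Each kept its call in all 18 alternatives.

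Some ribosomal proteins have a paralog, and 4 of 8 listed pairs had both members tested. Whether a paralog takes its partner's place in the ribosome was not tested. Rpl7l1 is also related to a yeast assembly factor, so its ratio to Rpl7 need not describe a swap within the ribosome. Rpl36al averaged 62.1 ± 2.71 CPM in Cd226-/- and 40.6 ± 3.38 CPM in WT (log2 fold change 0.61, adjusted p = 5.42e-07), whereas its partner Rpl36a averaged 2.18 ± 0.172 CPM in Cd226-/- and 2.56 ± 0.196 CPM in WT (adjusted p = 0.524). The log2 ratio of Rpl36al to Rpl36a within a library was higher in Cd226-/- by 0.85, without overlap between genotypes. Most counts of Rpl36a lie in its near-identical copies, and with copies summed the difference was 0.12 and the genotypes overlapped (exact permutation p = 0.4). Rpl7 averaged 279 ± 13.4 CPM in Cd226-/- and 224 ± 6.17 CPM in WT (log2 fold change 0.32, adjusted p = 4e-05), while Rpl7l1 fell. The log2 ratio of Rpl7l1 to Rpl7 was -1.77 ± 0.106 in Cd226-/- and -1.22 ± 0.020 in WT, again without overlap. For both ratios of the genes alone the exact permutation p was 0.1, the smallest possible, and 0.2 after adjustment over the 4 pairs.

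Rpl22, which binds structured RNA and is needed for T cell development, averaged 79.2 ± 9.87 CPM in Cd226-/- and 59.1 ± 2.04 CPM in WT (log2 fold change 0.42, adjusted p = 0.000347). Rpl22l1 rose as well, with 7.0, 6.42 and 7.95 CPM in Cd226-/- and 4.93, 4.03 and 4.66 CPM in WT (0.65, adjusted p = 0.0048). With replicate 1 as the only Cd226-/- library the log2 fold changes were 0.205 for Rpl22 and 0.627 for Rpl22l1. Their log2 ratio overlapped between genotypes, with a difference of 0.235 (exact permutation p = 0.3, also 0.3 adjusted). Rps27l, a p53 target gene in human cells, averaged 57.8 ± 1.86 CPM in Cd226-/- and 57.5 ± 0.968 CPM in WT, a log2 fold change of 0.01 ± 0.059 (adjusted p = 0.932). The ratio of Rps27l to Rps27 also overlapped, with a difference of -0.455 (exact permutation p = 0.3). With near-identical copies summed the difference was -0.87, without overlap (exact permutation p = 0.1, and 0.2 adjusted over the 4 pairs).

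The 7 members not tested had 0 to 49 counts over all 6 libraries. Rpl10l and Rpl32l had 0 counts in every library. Rpl3l, a muscle paralog of Rpl3, Rpl39l, a testis paralog of Rpl39, Rps4l, Rps12l1 and Rps28 made up the rest. Rpl6l, one of 3 members that RefSeq lists as pseudogenes together with Rps12l1 and Rps4l, was tested and had an adjusted p of 0.178. Rps28 is no paralog but a protein of the small subunit, and its near-identical copies held 4569 counts beside 26 of its own.

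Ribosomal protein genes have many processed pseudogenes, and reads that match both a gene and its copy can be counted at either or at neither. Coding sequences from GENCODE vM21 were therefore compared with all its transcripts, and a copy was called near-identical at 95% identity or more over at least 80% of the coding sequence. Of the members, 74 had at least 1 such copy among the counted rows, 439 copies in all, which held 192713 counts beside 787588 in the members. For 28 members the copies held more counts than the gene. Since the treatment of shared reads is not known, the single-gene levels of these members are uncertain.

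Levels per coding length varied widely between members. Per kb of coding sequence, the mean CPM of 79 tested members ran from 2.92 for Rpl10a to 3776 for Rpl41, whose coding sequence is very short. Among members other than paralogs, the median level was 274 CPM per kb with 0 to 3 copies, 112 with 4 to 6 and 75.5 with 7 or more, over 25, 22 and 28 genes. In the same classes 22, 13 and 17 genes rose, with medians of log2 fold change of 0.406, 0.382 and 0.318. The median level per length was thus highest in the class with the fewest copies.

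**Figure D3:**
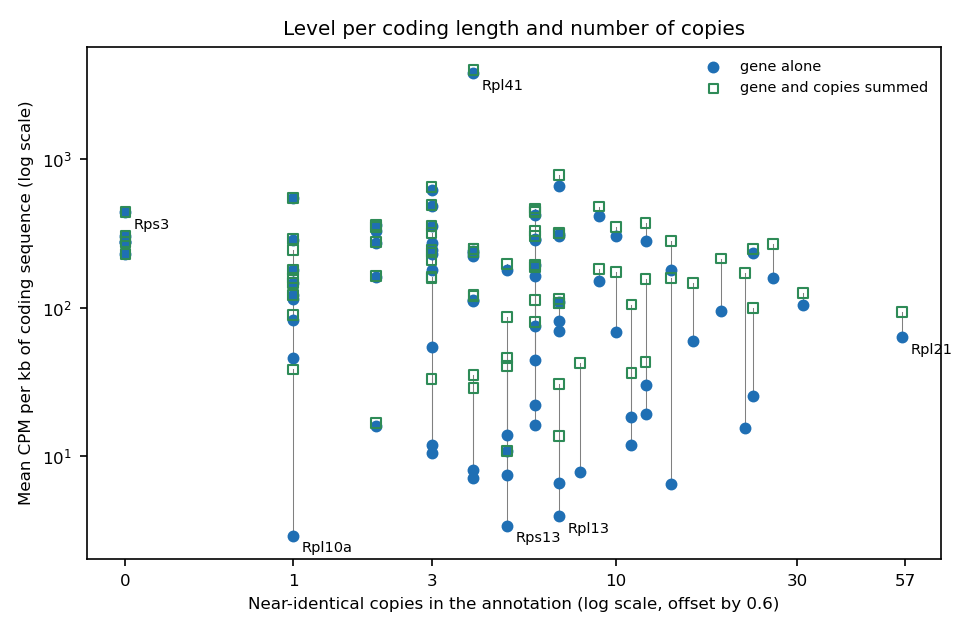
Mean CPM over 6 libraries per kb of coding sequence (log scale) against the number of near-identical copies in the annotation (log scale, offset by 0.6) for 79 tested members, with filled circles for the gene alone and open squares for the gene with its copies. Rpl10a has the lowest circle, at 2.92 CPM per kb, and rises to 38.4 with its single copy added.

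When each gene was summed with its copies, an alternative chosen after seeing the data, 71 of 81 tested members rose and 1, Rpl7l1, fell. All 54 members that rose on their own also rose as sums, and 16 tested members gained the call, as did Rps28, whose own counts were too few to test. Of the 5 members with a negative log2 fold change, 4 had a positive one as sums. Rpl10a had 473, 609 and 651 counts with its copy in Cd226-/- and 304, 298 and 383 in WT (log2 fold change 0.93, adjusted p = 2.96e-06). Nearly all of these counts belonged to Rpl10a-ps1, at 31.0 ± 4.99 CPM in Cd226-/- and 15.0 ± 0.225 CPM in WT (1.05, adjusted p = 1.62e-07).

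Rpl12, lower on its own, had 686, 710 and 763 counts with its copies in Cd226-/- and 671, 667 and 889 in WT, so that its sum did not differ past the threshold (log2 fold change 0.07, adjusted p = 0.474). The largest of its copies, Gm10275, moved the other way from the gene, with 31.1 ± 0.562 CPM in Cd226-/- and 24.9 ± 1.26 CPM in WT (adjusted p = 0.00401). Rps13 and Rpl36a as sums rose by 0.33 (adjusted p = 0.00353) and 0.495 (0.00357). Over all alternatives the adjusted p ran from 1.2e-05 to 0.474 for Rpl12, 2.95e-06 to 0.943 for Rpl10a, 0.00353 to 0.756 for Rps13 and 0.00198 to 0.885 for Rpl36a. For Rps29 the sum rose by 0.63, less than the 1.10 of the gene alone. Rpl23 with its copy rose by 0.50 (adjusted p = 3.03e-07), a call the gene alone did not have.

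**Figure D4:**
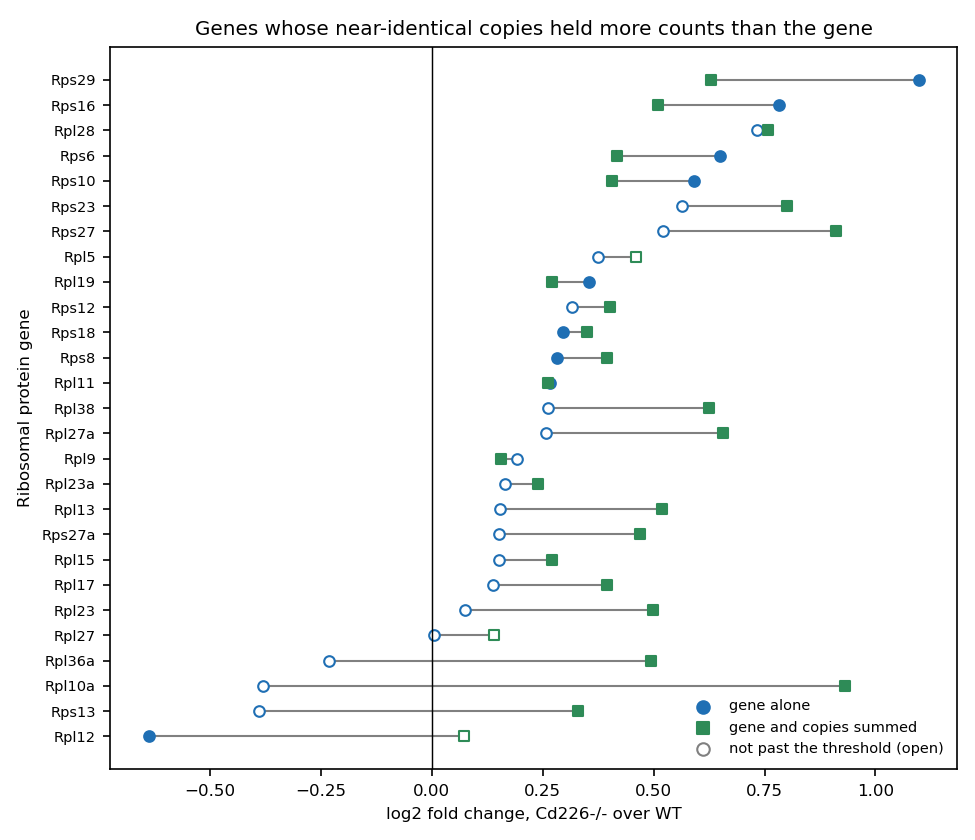
Log2 fold change of Cd226-/- over WT for the 27 tested ribosomal protein genes whose near-identical copies held more counts than the gene, with circles for the gene alone and squares for the gene and its copies summed. Filled symbols are past an adjusted p of 0.05. Rpl10a, Rps13, Rpl36a and Rpl12 lie below 0 alone and above 0 as sums.

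Rows named as pseudogenes of these genes were also higher where they were called. Of 296 such rows, 60 were tested, with a median log2 fold change of 0.567. Of the 60, 30 rose (50%) and 0 fell, beside 16.1% higher and 14.8% lower of all tested genes. The number lower was 0 also at an unadjusted p under 0.05 and in DESeq2 and limma-voom. They are not independent of the members, since reads may be shared.

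On chromosome 17 lie 8 members. Rps2, Rps10, Rps18 and Rpl36 rose, Rpl7l1 fell, Rpl10a passed in neither direction, and Rps28 and Rpl3l were not tested.

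The genes that act with ribosomal proteins differed in direction from list to list. The 22 elongation factors and other genes with known TOP mRNAs had a median log2 fold change of 0.194. In edgeR's test 12 of them rose (54.5%) and 0 fell, beside 16.1% higher and 14.8% lower of all tested genes. The number lower was 0 also at an unadjusted p under 0.05 and in DESeq2 and limma-voom. Rps3a1, a small-subunit protein outside the symbol rule, averaged 166 ± 1.31 CPM in Cd226-/- and 128 ± 10.7 CPM in WT (0.38, adjusted p = 2.12e-05). Eef1b2, an exchange factor for the elongation factor that delivers tRNA, averaged 108 ± 5.97 CPM in Cd226-/- and 76.6 ± 7.64 CPM in WT (0.50, adjusted p = 7.64e-06). Tpt1, a growth-associated protein, averaged 347 ± 11.4 CPM in Cd226-/- and 276 ± 12.8 CPM in WT (0.33, adjusted p = 2.69e-05). Named after their values were seen, Fau had a log2 fold change of 0.83 (adjusted p = 9.63e-05) and Eef1a1 0.81 (0.00122). Rack1 (0.62, adjusted p = 0.146) did not pass.

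The factors that build ribosomes were lower where called. Of 50 tested ribosome assembly factors, 0 rose and 27 fell (54%), beside 16.1% higher and 14.8% lower of all tested genes. The median log2 fold change of the 50 was -0.249, with 21 to 33 falling over the alternatives and at most 1 rising. In edgeR's test 1 was higher at an unadjusted p under 0.05, and in DESeq2 and limma-voom 0. Utp20, part of the machine that processes the small-subunit precursor, had 28.4, 30 and 31.6 CPM in Cd226-/- and 46.7, 53.2 and 44.6 CPM in WT (-0.68, adjusted p = 6.99e-07). Nolc1, a nucleolar chaperone, averaged 32.5 ± 0.492 CPM in Cd226-/- and 44.7 ± 1.15 CPM in WT (-0.46, adjusted p = 2.15e-05). Wdr75, another small-subunit assembly factor, averaged 20.9 ± 1.37 CPM in Cd226-/- and 30.2 ± 2.08 CPM in WT (-0.53, adjusted p = 6.36e-05). These 3 genes did not overlap between genotypes.

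RNA polymerase I, which transcribes ribosomal RNA, had 1 gene higher and 3 lower of 14 tested (median log2 fold change -0.161). These are 7.14% and 21.4%, beside 16.1% and 14.8% of all tested genes. Its largest subunit gene Polr1a averaged 37.4 ± 2.27 CPM in Cd226-/- and 47.6 ± 4.33 CPM in WT (-0.34, adjusted p = 0.00142). Polr1b (-0.49, adjusted p = 0.00216) and the initiation factor gene Rrn3 (-0.29, adjusted p = 0.00585) also fell.

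Translation initiation factors were split, with 3 higher and 7 lower of 30 (median log2 fold change -0.067). These are 10% and 23.3%, beside 16.1% and 14.8% of all tested genes. The list left out Eif3e, Eif3f, Eif3h and Eif4b, initiation factor genes that were counted with the TOP mRNAs. Of these, Eif3f (0.320, adjusted p = 0.000131), Eif3h (0.223, adjusted p = 0.00349) and Eif4b (0.138, adjusted p = 0.0337) rose. Eif3e did not pass (0.028, adjusted p = 0.75). The split thus depends on this assignment. The helicase genes Eif4a1 (-0.25, adjusted p = 0.00045) and Eif4a2 (-0.23, adjusted p = 0.00165) fell, and Eif3c, a subunit of the scaffold that binds the small subunit, rose (0.21, adjusted p = 0.00197). The 76 tested mitochondrial ribosomal protein genes, which serve the separate ribosome of mitochondria, had 4 higher and 4 lower (5.26% each way) and a median of -0.056. Mrpl54 (0.32, adjusted p = 0.0114) and Mrpl52 (0.26, adjusted p = 0.0131) rose and Mrpl42 fell (-0.27, adjusted p = 0.0167). Both shares lay below the 16.1% and 14.8% of all tested genes.

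**Figure D5:**
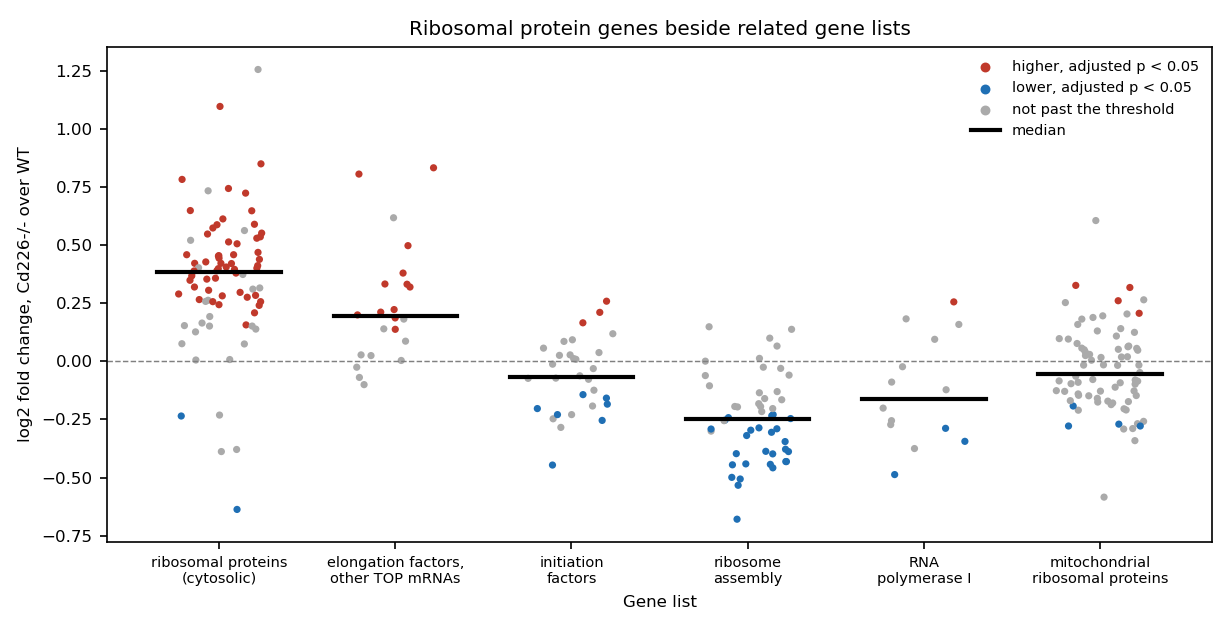
Log2 fold change of Cd226-/- over WT for each tested gene of 6 lists, with black bars at the medians, red points for genes higher and blue points for genes lower at an adjusted p under 0.05. The medians run from 0.385 for cytosolic ribosomal proteins, through 0.194 for elongation factors and other TOP mRNAs, to -0.249 for ribosome assembly factors.

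Among 27 tested regulators of mTORC1 and of TOP mRNAs, 4 rose (14.8%) and 7 fell (25.9%), beside 16.1% and 14.8% of all tested genes (median log2 fold change -0.155). Eif4ebp1, the translational repressor that mTORC1 inactivates, averaged 63.2 ± 1.64 CPM in Cd226-/- and 40.3 ± 2.52 CPM in WT (0.65, adjusted p = 1.07e-07). Larp1b, a relative of LARP1, averaged 37.3 ± 2.66 CPM in Cd226-/- and 23.1 ± 1.97 CPM in WT (0.69, adjusted p = 1.93e-06). Sesn2, a stress-induced inhibitor of mTORC1, averaged 15.4 ± 0.463 CPM in Cd226-/- and 8.48 ± 1.82 CPM in WT (0.875, adjusted p = 4.34e-05). Among the 7 that fell, named after their values were seen, were Akt1s1 (-0.43, adjusted p = 0.000112), Mlst8 (-0.34, adjusted p = 0.00539) and Deptor (-1.085, adjusted p = 0.0489), which encode proteins of mTOR complexes.

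Of 16 ribosome quality control and stress sensing genes, 2 rose and 2 fell (12.5% each way, median log2 fold change -0.074), shares below those of all tested genes. Gtpbp2, which helps rescue stalled ribosomes, averaged 138 ± 2.34 CPM in Cd226-/- and 96.8 ± 4.47 CPM in WT (0.51, adjusted p = 1.61e-07). Edf1, a sensor of collided ribosomes, rose (0.18, adjusted p = 0.0174) and the deubiquitinase gene Usp10 fell (-0.46, adjusted p = 0.00239). Of 7 genes of the GAIT system, Eprs, its tRNA synthetase, rose (0.13, adjusted p = 0.0486) and Dapk1, a kinase upstream of Rpl13a phosphorylation, fell (-0.32, adjusted p = 9.6e-05). Each is 14.3% of the list, near the background, and the median of the 7 was 0.130. Eprs was not called by DESeq2, by limma-voom, with library size alone, or without Cd226-/- replicate 2 or 3 or WT replicate 1 or 2.

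Markers of some other cell types differed between the genotypes beside these gene lists. The shares over all tested genes were 16.1% higher and 14.8% lower. All 5 B cell markers rose, with a summed level of 30 to 39.3 CPM in Cd226-/- and 12.2 to 15.1 CPM in WT. All 4 stromal markers rose, with 619 to 640 CPM in Cd226-/- and 356 to 416 CPM in WT. Of 4 proliferation markers 2 rose, with 29.9 to 42.0 CPM in Cd226-/- and 24.7 to 29.8 CPM in WT, and of 5 T cell markers 0 passed in edgeR, DESeq2 or limma-voom, 1 of them higher at an unadjusted p under 0.05, with 6.01 to 6.59 CPM in Cd226-/- and 3.92 to 5.42 CPM in WT. The erythroid markers Hba-a1 and Hbb-bs and the basophil marker Mcpt8 were at 0 in every library. The part of B cells, stromal cells or dividing cells in the ribosomal protein levels was not tested.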

How the data were processed

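The deposited file holds raw counts as whole numbers, 1 row per gene symbol and 1 column per library, per the file headers. HISAT2 and the build GRCm38 are named in the submitters' processing notes. The sources used here give neither the counting tool, the annotation, the strand setting nor how multiply matching reads were treated, which decide the counts of genes with near-identical copies and of overlapping genes. No column of per-sample values was left unused.

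The whole table was fitted with edgeR 4.0.16 in R 4.3.3. After filterByExpr by genotype and TMM scaling, genotype was tested as the single term by edgeR's two-sided, robust quasi-likelihood F-test. Benjamini-Hochberg adjustment ran over all 13215 tested genes, and a gene was called at an adjusted p under 0.05. CPM was computed on TMM-scaled library sizes, and 1 count was worth 0.0452 to 0.0600 CPM. Floors would cover counting error only. Standard errors of the log2 fold changes also reflected the spread among libraries. At mean counts of 206 and 204 they were 0.397 for Rpl31 and 0.136 for Rpl12. The biological coefficient of variation was 6.75%. Libraries of a genotype differed pairwise beyond counting noise (chi-square over degrees of freedom 2.17 to 7.76), so each was kept as a sample.

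Members, gene lists and named genes were chosen with earlier results of these data known. The rule for named genes took the 8 highest and 8 lowest log2 fold changes, every member called lower, 15 members listed by name, paralogs with their partners, members on chromosome 17 and those not tested, and up to 3 called genes of each related list. All 173 symbols of the related lists matched a row, some through a RefSeq synonym. RefSeq positions and promoter sequences are of GRCm38.p6, and promoters on chromosome 18 were not used.

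Near-identical copies came from BLAST 2.17.0 against GENCODE vM21 transcripts. Genes that only contain a copy, 6 in number, were left out: those with a protein-coding transcript without the match, or a matched transcript over 1000 bases longer than the coding sequence. Alternatives were DESeq2 1.42.0 size factors and its Wald test, limma-voom (limma 3.58.1), scaling by library size alone, TMM without the ribosomal protein genes, leaving out the filter, a minimum mean of 5 CPM, named pseudogenes summed with their gene, offsets for transcript length and GC content (lowess span 0.3), a replicate block, leaving out single libraries and replicate 1 as the only Cd226-/- library. Summing near-identical copies was added after seeing the data. The fitting steps were tested on simulated data.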

Additional observations from a re-analysis of the deposited data

How the results depend on the processing

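The number of ribosomal protein genes higher in Cd226-/- ran from 41 to 71 over 18 alternatives, and 40 members were higher in every alternative in which they were tested (47 with the fit on Cd226-/- replicate 1 alone set aside). Leaving out single libraries gave 50 to 60 higher, 2 lower each time, a median log2 fold change of 0.335 to 0.442 and a difference in the share of counts of 0.136 to 0.171 percentage points. The number lower was 1 with near-identical copies summed. The median was 0.273 with replicate 1 as the only Cd226-/- library, 0.326 with length and GC offsets, 0.332 with library size alone and 0.430 with copies summed. The share difference was 0.199 points with copies added, beside 0.148. Over all tested genes 2130 were higher and 1956 lower, against 1773 and 2764 with library size alone, which moved the median of all genes from -0.004 to -0.058.

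Same-numbered libraries of the 2 genotypes did not deviate together (correlations of 0.0123, -0.0135 and 0.013). The labels do not say whether replicate numbers mark a shared mouse, batch or day. With 3 libraries per genotype these correlations cannot exclude such a pairing. With the replicate block 56 members were higher and 2 lower.

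Of 693 values of 39 named members, 621 kept direction and side of the threshold, 30 lost the call, 20 gained it and 22 changed sign. The causes were not tested, except that sums add counts of other rows. Summing named pseudogenes gave log2 fold changes of 0.931 for Rpl10a, 0.523 for Rpl36a and 0.329 for Rps13, and summing near-identical copies gave 0.932, 0.495 and 0.329, with 0.073 for Rpl12. Rpl27 had -0.282 with replicate 1 alone, -0.070 with length and GC offsets, -0.046 with library size alone, -0.025 in limma-voom, -0.007 without a filter, -0.004 with the replicate block, and -0.224 and -0.137 without Cd226-/- or WT replicate 2, with -0.224 to 0.131 over single libraries left out. Rps27a had -0.501 with replicate 1 alone and -0.047 without Cd226-/- replicate 2, with -0.047 to 0.400 over single libraries left out. Rps27l had -0.098 with length and GC offsets, -0.045 with library size alone, -0.004 without a filter, and -0.012 and -0.005 without Cd226-/- or WT replicate 3, with -0.012 to 0.032 over single libraries left out. Initiation factors lower numbered 12, mTORC1 and TOP regulators lower 14 and mitochondrial ribosomal proteins lower 14 with library size alone, against 7, 7 and 4. Over all alternatives initiation factors had 1 to 4 higher and 3 to 12 lower, RNA polymerase I 0 to 2 and 3 to 5, mTORC1 and TOP regulators 3 to 5 and 4 to 14, quality control genes 1 to 3 and 1 to 4, GAIT genes 0 to 2 higher, and mitochondrial ribosomal proteins 0 to 7 and 0 to 14. Of the 24 members under 300 counts 18 passed in neither direction, and the part of depth in this was not tested. The 4 paralog log2 ratio differences kept their signs with single libraries left out and with copies summed, both added after seeing the data.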
